A study of Mus musculus with 36 samples.

Results

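The 10 genes described here belong to the insulin-like growth factor (IGF) system: 2 ligands (Igf1, Igf2), 2 receptors (Igf1r, Igf2r) and 6 binding proteins (Igfbp2 to Igfbp7). They were taken by symbol from the 46078 genes counted, and the set was chosen by the difference between F133V and vector cancer cells, in which Igfbp5 was seen to be nearly lost. For these genes that difference is therefore given below as a description with no test. RNA of 36 libraries was sequenced from RM-1-BM, a mouse prostate cancer line transduced with the F133V mutant of SPOP (an adaptor of a ubiquitin ligase) or with empty vector (EV), and from RAW264.7, a mouse macrophage line. Cancer cells grew opposite macrophages in transwells, where only medium is shared, or alone, with olaparib (an inhibitor of PARP enzymes) or DMSO.

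There were 12 groups of 3 libraries. The F133V cancer cell groups were F133V+RAW264.7+Ola and F133V+RAW264.7+DMSO (cocultures) and F133V+Ola and F133V+DMSO (monocultures), and the vector groups were EV+RAW264.7+Ola, EV+RAW264.7+DMSO, EV+Ola and EV+DMSO. The macrophage groups came from the same kinds of coculture and are named RAW264.7+F133V+Ola, RAW264.7+F133V+DMSO, RAW264.7+EV+Ola and RAW264.7+EV+DMSO. Macrophages grown alone were not analysed here, so a macrophage group is set only against another coculture or against cancer cells. The labels give neither the promoter that drives the mutant, nor whether the transduced cells are 1 clone, nor whether the 3 libraries of a group were separate cultures. The p-values therefore measure the spread between these libraries only.

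IGF1 and IGF2 are secreted growth factors that signal through the receptor tyrosine kinase IGF1R, which acts through IRS proteins, PI3 kinase and AKT. IGF2R, also the cation-independent mannose 6-phosphate receptor, takes up IGF2 for degradation and sorts lysosomal enzymes. IGFBP2 to IGFBP6 bind the ligands with high affinity and keep them from, or deliver them to, the receptor, and IGFBP7 binds them weakly. The system has long been studied in prostate growth and prostate cancer.

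Gene counts per library ranged from 30292309 to 43062440 (median 36623720), and levels are given as CPM, a gene's counts relative to all gene counts of the library, scaled with edgeR's TMM factors. Spop, the transduced gene, read 93.7 to 115 CPM in the F133V cancer cell libraries, 110 to 126 CPM in the vector libraries and 96.6 to 114 CPM in macrophages, and the mutant allele itself was not checked. Within each of the 4 matched settings every F133V library read lower than every vector library, for example 104 to 107 CPM in F133V+DMSO and 116 to 120 CPM in EV+DMSO. Whether reads of the transduced copy were counted is not known. The 14 macrophage markers summed to 12300 to 14600 CPM in macrophages and to 11.2 to 22.9 CPM in cancer cells. The 14 cancer cell markers summed to 0.515 to 1.08 CPM in macrophages and to 587 to 1230 CPM in cancer cells. Replicates 1 and 2 of EV+DMSO stood apart with 3.38 and 4.36 CPM of Lyz2, a macrophage lysozyme, against 0.642 to 1.64 CPM in the other 22 cancer cell libraries. Many member results that use EV+DMSO are therefore also given without those 2 libraries. That leaves 1 EV+DMSO library, which is assumed to vary like the other groups, and with the spread taken from them no call of a member changed. Other libraries stood apart within their group by a chi-square per degree of freedom on gene counts, which was 1.42 to 2.94 for the library pairs of 8 groups. Replicate 1 of F133V+RAW264.7+DMSO gave 18.0 and 11.8 with the other 2, which gave 2.80 with each other, and replicate 2 of RAW264.7+F133V+DMSO gave 14.9 and 14.2, against 2.31 between the other 2. The 3 libraries of F133V+Ola gave 5.58 to 16.6, and replicates 1 and 3 of F133V+RAW264.7+Ola gave 8.04. For many member results that use these libraries, a value without them stands beside the main one. For F133V+RAW264.7+Ola such values leave out replicate 3 and not replicate 1, and they stand beside olaparib changes only. Results of other genes of the pathway are given only with all libraries included. F133V libraries also carried more of certain noncoding RNAs. Gm26917 took 3.84 ± 0.076% of gene counts in F133V+DMSO and 0.2% in EV+DMSO, and 3.56 ± 0.092% in F133V+RAW264.7+DMSO and 0.261% in EV+RAW264.7+DMSO (SD, n = 3). With olaparib it took 1.43% in F133V+Ola and 0.487% in F133V+RAW264.7+Ola, against at most 0.191% in EV libraries. The part of these RNAs in the results below was not tested. The choice of scaling bears on the F133V cocultures with DMSO: with library size alone in place of TMM, the median log2 change of all genes was −0.2 for coculture and 0.23 for olaparib in F133V cells, against 0.01 and 0.02 with TMM.

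The 6 binding protein genes lie at 5 places in the genome (build GRCm38, GENCODE M21). Igfbp2 (chromosome 1, 72824503 to 72852474, plus strand) and Igfbp5 (chromosome 1, 72857932 to 72874884, minus strand) are neighbours that point at each other, 5457 bases apart with 0 genes between them. Igfbp3 (7206086 to 7213923, minus strand) and Igfbp4 (99041244 to 99054392, plus strand) are both on chromosome 11, Igfbp6 is on chromosome 15 (102144362 to 102149511, plus strand) and Igfbp7 on chromosome 5 (77349240 to 77408041, minus strand). The sequences just before the annotated starts of Igfbp5 and Igfbp4 are shown because Igfbp5 had the widest range of the members, Igfbp4 moved against it in vector cells, and the starts of both in RefSeq and GENCODE lie within 20 bases of each other. They end where the first annotated exon begins, and come from the table of RefSeq promoters (all 10 members matched by symbol) on GRCm38.p6, at chr1:72874885-72875115 on the minus strand (231 bases) and chr11:99040994-99041243 on the plus strand (250 bases). In capitals are GCCAGGGGC, a match to the AP-2 letters GCCNNNGGC, and the TATA-like TATTTAA in Igfbp5, and TATAAA in Igfbp4.
Igfbp5: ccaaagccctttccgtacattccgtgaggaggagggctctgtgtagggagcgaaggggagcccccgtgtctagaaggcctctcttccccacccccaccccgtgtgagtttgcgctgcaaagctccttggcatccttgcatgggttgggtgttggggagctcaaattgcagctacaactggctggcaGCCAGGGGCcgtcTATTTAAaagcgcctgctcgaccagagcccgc
Igfbp4: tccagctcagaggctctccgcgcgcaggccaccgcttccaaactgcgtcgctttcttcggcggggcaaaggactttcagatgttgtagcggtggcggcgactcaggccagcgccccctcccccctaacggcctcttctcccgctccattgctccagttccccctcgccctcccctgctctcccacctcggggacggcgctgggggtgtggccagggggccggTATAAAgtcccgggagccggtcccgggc

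Both strands were searched for 6 motifs. Besides the 3 in capitals these were the GC box (GGGCGG), the AP-1 site (TGANTCA) and the core of the hypoxia response element (ACGTG), which had no match in either window; these letters occur in 32.7%, 6.7% and 16.6% of all promoters. The Igfbp5 window held 1 match to TATTTAA, at bases 32 to 26 before its end, and 1 to GCCNNNGGC, at bases 45 to 37. The Igfbp4 window held 1 match to TATAAA, at bases 28 to 23 before its end. Of all 32851 RefSeq promoters, 4.2% hold the TATA-like letters of Igfbp5, 13.7% the AP-2 letters and 12.4% the TATA box letters of Igfbp4, and a match describes letters only. The AP-2 match and the TATA-like match do not overlap. GC content was 60.6% for Igfbp5 and 69.2% for Igfbp4, where the median promoter had 52.4%.

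Igfbp5, whose protein binds extracellular matrix as well as IGFs, was the member with the widest range. In monoculture with DMSO it read 0.358, 0.745 and 0.527 CPM in the 3 F133V libraries (12, 29 and 18 counts) and 33.0, 32.5 and 33.1 CPM in the vector libraries. The fold change was 59.1-fold lower in F133V cells (log2 −5.88 ± 0.11, SE), and without the 2 EV+DMSO libraries with Lyz2 it was −5.90. With olaparib, F133V monocultures read 0.673, 0.828 and 0.835 CPM and vector monocultures 51.0, 50.5 and 51.7 CPM (log2 −6.04 ± 0.10). The highest F133V library of all, at 1.82 CPM, lay below the lowest vector library, at 13.1 CPM, so the genotypes did not overlap in any setting. In coculture the log2 difference was −4.50 ± 0.13 with DMSO and −4.28 ± 0.09 with olaparib. Groups that did not overlap were common in these contrasts: 70.4% of 15962 tested genes in monoculture and 80.1% in coculture with DMSO, and 68.1% and 65.7% with olaparib. Of the 6 tested members, 4 had no overlap in monoculture with olaparib and 6 in each of the other settings, and nothing is read from these counts, since the contrast chose the set.

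**Figure D1:**
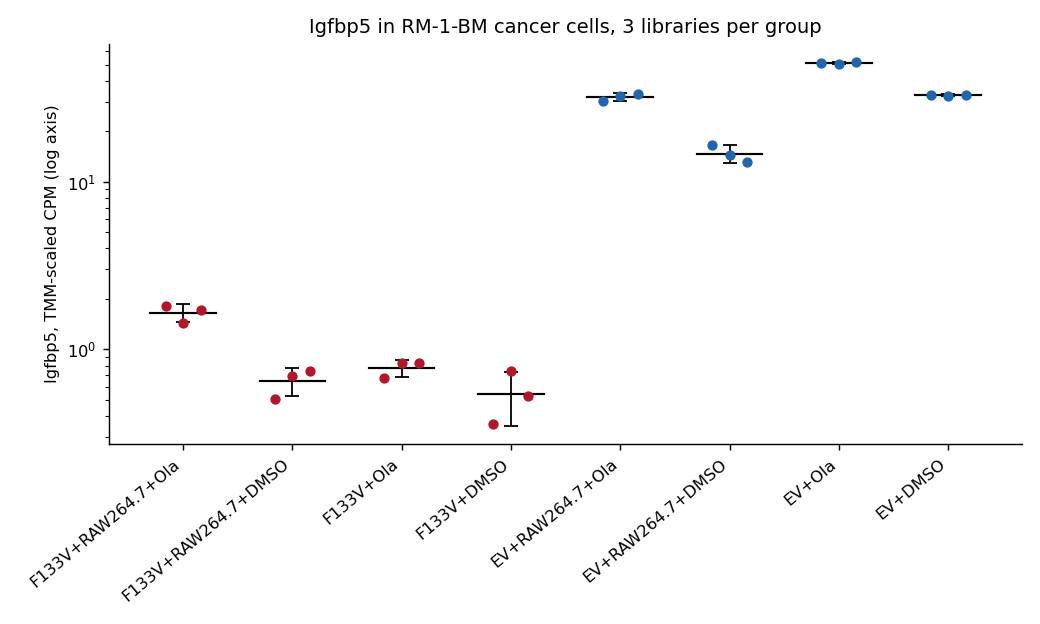
Igfbp5 level in each of the 24 cancer cell libraries as TMM-scaled CPM on a log axis, with F133V groups in red and EV groups in blue; lines are group means and bars are SD (n = 3). All F133V libraries lie at or below 1.82 CPM and all EV libraries at or above 13.1 CPM, and within each genotype the olaparib cocultures lie above the DMSO cocultures.

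Olaparib and coculture are not the contrast by which the set was chosen, though members were chosen with earlier results of these data known. Igfbp5 changed with both. Its comparisons within F133V cells use the low levels by which it was chosen. Their p-values are therefore not independent support. Coculture with olaparib gave 30.3, 32.7 and 33.3 CPM in vector cells, against 16.7, 14.4 and 13.1 CPM with DMSO. The 2 groups did not overlap, and Igfbp5 rose 2.18-fold (log2 1.12 ± 0.06, adjusted p = 1.69e-17, edgeR quasi-likelihood test with Benjamini-Hochberg adjustment, as for every adjusted p below). In vector monocultures it rose 1.55-fold with olaparib (0.64 ± 0.05, adjusted p = 1.11e-12; 0.62 without the 2 Lyz2 libraries). In F133V cocultures it read 1.82, 1.43 and 1.71 CPM with olaparib (72, 61 and 71 counts), against 0.509, 0.696 and 0.748 CPM with DMSO (17, 25 and 21 counts), and rose 2.55-fold (1.35 ± 0.21, adjusted p = 3.87e-07; 1.21 without F133V+RAW264.7+DMSO replicate 1 and 1.34 without F133V+RAW264.7+Ola replicate 3). The 3 olaparib libraries lay above the 3 DMSO libraries, at levels still far below those of vector cells. In F133V monocultures the log2 difference was 0.48 ± 0.26 and did not pass (adjusted p = 0.158). Without F133V+DMSO replicate 2 it was 0.80 and passed (adjusted p = 0.044), and without any 1 library of F133V+Ola it was 0.43 to 0.59 and did not pass.

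Coculture with macrophages went with a fall of Igfbp5 in vector cells under both treatments, and with a rise in F133V cells under olaparib. Vector cells read 14.7 ± 1.8 CPM in coculture and 32.9 ± 0.32 CPM alone with DMSO (SD, n = 3 each), a fall to 0.448 of the monoculture level (log2 −1.16 ± 0.06, adjusted p = 7.56e-19; −1.17 without the 2 Lyz2 libraries). Of the 8 macrophage markers tested in cancer cells, 1 was higher and 5 were lower in the same comparison (23.4% and 18.6% of all genes). Its reference, EV+DMSO, holds the 2 Lyz2 libraries, and this marker count is not given without them. Vector cells with olaparib read 32.1 ± 1.6 CPM in coculture and 51.1 ± 0.63 CPM alone (−0.67 ± 0.05, adjusted p = 1.32e-13). F133V cells with olaparib read 1.66 ± 0.20 CPM in coculture and 0.779 ± 0.091 CPM alone, a 2.12-fold rise (1.09 ± 0.20, adjusted p = 1.16e-05; 0.99 to 1.14 without any 1 library of F133V+Ola). With DMSO their difference was 0.22 ± 0.28 (adjusted p = 0.489; 0.38 without F133V+RAW264.7+DMSO replicate 1, adjusted p = 0.29). The coculture change in F133V cells minus that in vector cells was 1.38 ± 0.29 with DMSO and 1.76 ± 0.20 with olaparib, and the olaparib change in F133V minus vector cells was 0.22 ± 0.23 in coculture and −0.15 ± 0.28 alone. These 4 values are given with no test, because the near absence of Igfbp5 in F133V cells chose it. In these bulk libraries, fewer cells with the RNA and less RNA per cell cannot be told apart, which holds for all levels here.

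Across the members tested in cancer cells (6 of 10: Igfbp4, Igfbp5, Igfbp6, Igfbp7, Igf1r, Igf2r) no comparison moved all of them. With olaparib, 3 were higher and 1 lower in F133V cocultures, where 76.3% of tested genes passed, and 2 were higher and 0 lower in F133V monocultures, where 36.2% passed. In vector cells 2 were higher and 2 lower in coculture (23.6% of genes) and 1 higher and 2 lower in monoculture (30.4%). For coculture against monoculture, 3 were higher and 2 lower in F133V cells with DMSO (70.3%), 2 higher and 2 lower in F133V cells with olaparib (53.2%), 3 higher and 2 lower in vector cells with DMSO (42.0%) and 2 higher and 1 lower in vector cells with olaparib (44.1%). Igfbp7, which entered only through the vector groups, is 1 of the lower in both F133V coculture counts, and nothing is read from it. Igfbp5, chosen by its low level in F133V cells, is 1 of the higher in F133V cocultures with olaparib, against DMSO and against monoculture. The median log2 change of the 6 lay between −0.09 and 0.43 for olaparib and between 0.07 and 0.21 for coculture, where that of all tested genes lay between −0.01 and 0.02. In 7 of the 8 comparisons members passed in both directions.

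**Figure D2:**
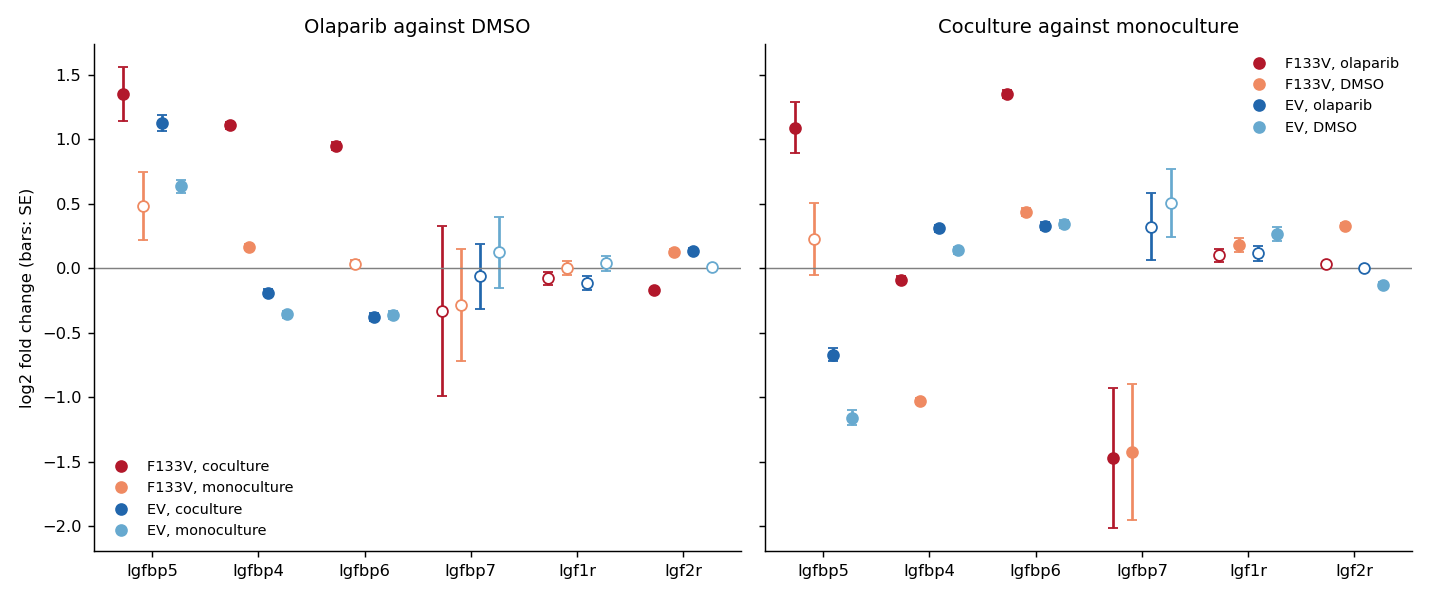
Log2 fold changes (± SE) of the 6 members tested in cancer cells, for olaparib against DMSO (left) and coculture against monoculture (right); filled points passed at an adjusted p under 0.05 and open points did not, and nothing is read from Igfbp7, which has few counts. Igfbp5, Igfbp4 and Igfbp6 rose by 0.95 to 1.35 with olaparib in F133V cocultures, and Igfbp4 and Igfbp6 fell by 0.19 to 0.38 in vector cells.

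Igfbp4, a binding protein that mostly restrains IGF action and is cut by the protease PAPP-A, was lowest in 1 group. F133V cocultures with DMSO read 170, 179 and 168 CPM, against 353, 356 and 346 CPM in F133V monocultures. The groups did not overlap, and the level in coculture was 0.49 of that alone (log2 −1.03 ± 0.03, adjusted p = 1.07e-29). Vector cells moved the other way and read 364, 362 and 348 CPM in coculture with DMSO, against 328, 322 and 326 CPM alone (0.14 ± 0.03, adjusted p = 1.34e-05; 0.09 with library size alone, and 0.14 without the 2 Lyz2 libraries, adjusted p = 0.0033). The difference between these changes, F133V minus vector, was −1.17 ± 0.04 (adjusted p = 2.34e-26; −1.18 without the 2 Lyz2 libraries). Without F133V+RAW264.7+DMSO replicate 1 the fall in F133V cells was −1.02 and that difference −1.15. With olaparib it was −0.40 ± 0.04 (adjusted p = 2.48e-12), where F133V cells fell by 0.09 ± 0.03 (adjusted p = 0.00241; fell by 0.17 with library size alone) and vector cells rose by 0.31 ± 0.03 (adjusted p = 3.65e-13). Without any 1 library of F133V+Ola the change in F133V cells was −0.12 to −0.06 and passed, and the difference was −0.42 to −0.37.

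With olaparib, Igfbp4 rose in F133V cells and fell in vector cells, in coculture and in monoculture. F133V cocultures read 375, 373 and 365 CPM with olaparib, against 170, 179 and 168 CPM with DMSO, a 2.15-fold rise (log2 1.11 ± 0.03, adjusted p = 2.88e-31; 1.11 without F133V+RAW264.7+DMSO replicate 1 and 1.13 without F133V+RAW264.7+Ola replicate 3). Vector cocultures read 318, 311 and 313 CPM with olaparib, against 364, 362 and 348 CPM with DMSO (−0.19 ± 0.03, adjusted p = 1.36e-07). The olaparib change in F133V minus vector cells was 1.29 ± 0.04 in coculture (adjusted p = 3.19e-28) and 0.52 ± 0.04 in monoculture (adjusted p = 1.6e-14; 0.53 without the 2 Lyz2 libraries). In monoculture Igfbp4 rose by 0.17 ± 0.03 in F133V cells (adjusted p = 9.66e-07; 0.14 to 0.19 without any 1 library of F133V+Ola) and fell by 0.36 ± 0.03 in vector cells (adjusted p = 1.4e-14; fell by 0.36 without the 2 Lyz2 libraries). The difference between F133V and vector cells was −1.05 in coculture with DMSO, 0.24 in coculture with olaparib, 0.11 in monoculture with DMSO (0.02 with library size alone, 0.11 without the 2 Lyz2 libraries) and 0.64 in monoculture with olaparib.

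**Figure D3:**
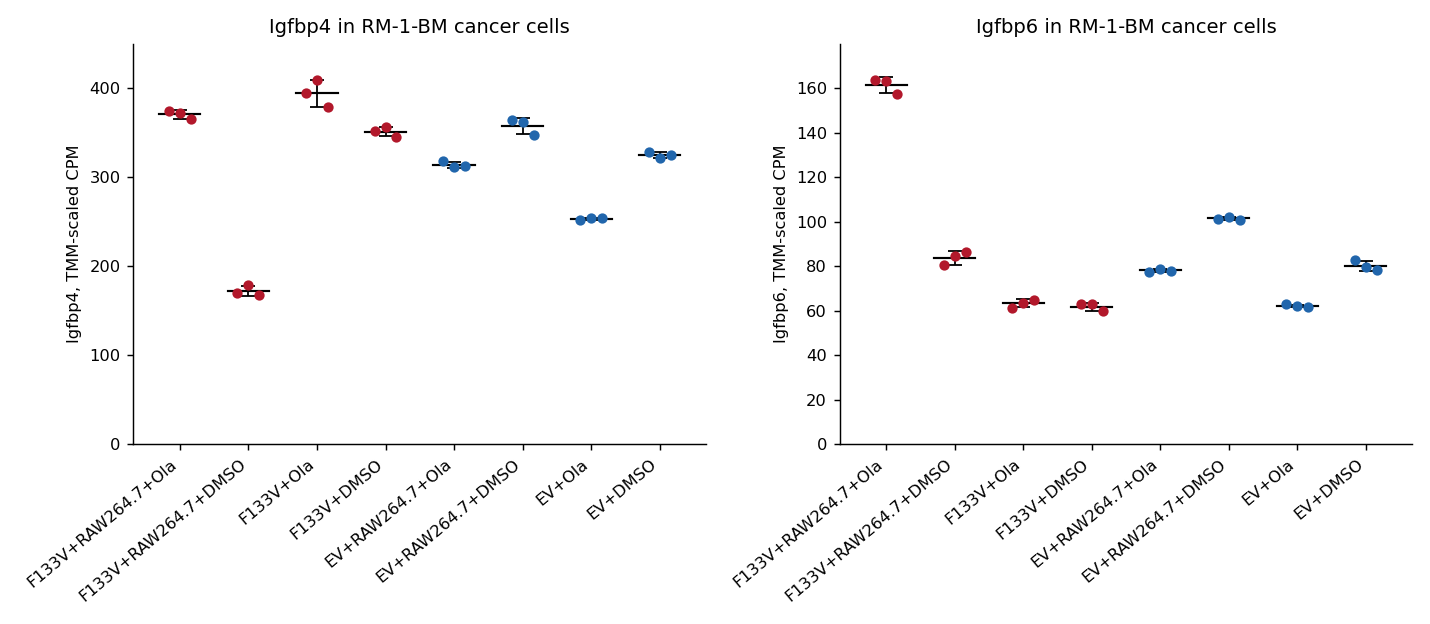
Igfbp4 (left) and Igfbp6 (right) in each of the 24 cancer cell libraries as TMM-scaled CPM on axes from 0, F133V groups in red and EV groups in blue; lines are group means and bars are SD (n = 3). Igfbp4 lies at 168 to 179 CPM in F133V+RAW264.7+DMSO and at 252 CPM or above elsewhere, and Igfbp6 lies at 157 to 164 CPM in F133V+RAW264.7+Ola and at 102 CPM or below elsewhere.

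Igfbp6, which prefers IGF2 over IGF1, was highest in 1 group. F133V cocultures with olaparib read 164, 163 and 157 CPM, against 80.4, 84.4 and 86.4 CPM with DMSO, a 1.93-fold rise (log2 0.95 ± 0.03, adjusted p = 2.24e-27; 0.93 without F133V+RAW264.7+DMSO replicate 1 and 0.98 without F133V+RAW264.7+Ola replicate 3). The same cocultures stood 2.55-fold above F133V monocultures with olaparib, which read 61.4, 63.6 and 64.9 CPM (1.35 ± 0.03, adjusted p = 2.5e-31; 1.33 to 1.37 without any 1 library of F133V+Ola). No library of another group came above 102 CPM. Vector cells fell by 0.38 ± 0.03 with olaparib in coculture (adjusted p = 5.66e-13) and by 0.37 ± 0.03 in monoculture (adjusted p = 2.11e-12; fell by 0.33 without the 2 Lyz2 libraries), and F133V monocultures differed by 0.03 ± 0.03 (adjusted p = 0.461), which with library size alone was 0.11 and passed (adjusted p = 0.013). The olaparib change in F133V minus vector cells was 1.33 ± 0.04 in coculture (adjusted p = 1.71e-26) and 0.40 ± 0.05 in monoculture (adjusted p = 6.98e-09; 0.37 without the 2 Lyz2 libraries).

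With coculture, Igfbp6 rose in both genotypes and under both treatments. The rise was 0.44 ± 0.03 in F133V cells with DMSO (adjusted p = 2.39e-15; 0.23 with library size alone) and 0.34 ± 0.03 in vector cells with DMSO (adjusted p = 2.07e-12; 0.38 without the 2 Lyz2 libraries). The difference between those changes was 0.10 ± 0.04 and did not pass (adjusted p = 0.0532; 0.05 without the 2 Lyz2 libraries, adjusted p = 0.44), though it passed with RLE scaling at 0.14 (adjusted p = 0.0064), was −0.07 with library size alone (adjusted p = 0.22), and passed in 3 of the fits with 1 library left out (EV+DMSO replicate 3, F133V+DMSO replicate 2 or F133V+RAW264.7+DMSO replicate 1). With olaparib the difference was 1.02 ± 0.04 (adjusted p = 6.25e-22), between a rise of 1.35 in F133V cells and one of 0.33 ± 0.03 in vector cells (adjusted p = 1.75e-11). The F133V and vector groups themselves differed by −0.38 in monoculture with DMSO (−0.34 without the 2 Lyz2 libraries), 0.03 in monoculture with olaparib, −0.28 in coculture with DMSO (−0.53 with library size alone) and 1.05 in coculture with olaparib.

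Igfbp7, a secreted protein known from blood vessels and senescent cells, was rare. It read 3 to 15 counts (0.0705 to 0.44 CPM) in F133V libraries and 21 to 54 counts (0.563 to 1.38 CPM) in vector libraries, passed the filter on low counts only through the vector groups, and had 0 counts in all 12 macrophage libraries. Its exons overlap those of Polr2b on the opposite strand, and the strand setting of the counting is not given, so its level is uncertain. F133V cells read 0.120, 0.0835 and 0.107 CPM in coculture and 0.119, 0.283 and 0.440 CPM alone with DMSO (log2 −1.43 ± 0.52). With olaparib the coculture difference was −1.47 ± 0.54. The 2 DMSO groups overlapped in replicate 1, and the olaparib groups did not overlap. Vector cells differed by 0.51 with DMSO and 0.32 with olaparib. The difference in F133V cells was −0.99 with DMSO without F133V+DMSO replicate 3, and −1.25 with olaparib without F133V+Ola replicate 3. The coculture change in F133V minus vector cells was −1.93 ± 0.59 with DMSO (−2.14 without the 2 Lyz2 libraries) and −1.79 ± 0.60 with olaparib. These values describe few counts of a gene admitted by its vector level, so no p is given and nothing is read from them.

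Igfbp3, the main carrier of IGFs in blood, had 0 counts in all 36 libraries, which allows a level of up to 0.0697 to 0.099 CPM per library (3 counts of its total, counting error only). Igfbp2 had 0 counts in all 24 cancer cell libraries and 0 to 3 counts in macrophages. Its neighbour Igfbp5, 5457 bases away, had 460 or more counts in each vector library, in all of which Igfbp2 had 0.

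The ligand genes gave almost no reads in cancer cells. Igf1 (chromosome 10, 87858265 to 87937042, plus strand) had 0 to 2 counts in each of the 24 cancer cell libraries and 662 to 1496 counts in macrophages. Igf2 (chromosome 7, 142650766 to 142666816, minus strand), the ligand expressed from the paternal allele in most tissues, had 0 to 2 counts in cancer cells and 0 to 6 in macrophages, with the 6 in replicate 2 of RAW264.7+F133V+Ola. Igf2 passed no filter and its exons overlap Igf2os and Gm49394, so no fold change is given.

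In macrophages, Igf1 differed both by partner and by drug. With DMSO it read 17.9, 19.2 and 18.5 CPM opposite F133V cells, against 43.4, 45.5 and 43.4 CPM opposite vector cells. The groups did not overlap, and the level with the F133V partner was 0.421 of that with the vector partner (log2 −1.25 ± 0.04, adjusted p = 7.63e-31). Olaparib gave 39.7, 39.95 and 38.6 CPM opposite F133V cells, a 2.13-fold rise over DMSO (1.09 ± 0.04, adjusted p = 4.38e-28). Opposite vector cells olaparib gave 32.4, 33.5 and 33.6 CPM, a fall by 0.41 ± 0.04 (adjusted p = 9.18e-13). The difference between the 2 olaparib changes was 1.498 ± 0.057 (adjusted p = 4.21e-28). Without RAW264.7+F133V+DMSO replicate 2 the partner difference with DMSO was −1.275, the olaparib rise opposite F133V cells 1.11 and the difference between the olaparib changes 1.52. With olaparib the F133V-partner group therefore lay above the vector-partner group, by 0.25 ± 0.04 (adjusted p = 5.12e-07). The 14 macrophage markers summed to 12300 to 12600 CPM in RAW264.7+F133V+DMSO and 14400 to 14600 CPM in RAW264.7+EV+DMSO. With the F133V partner, 9 of the 14 were lower and 3 higher, beside 28.1% and 25.5% of all genes. The part of these markers in the Igf1 difference was not tested.

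**Figure D4:**
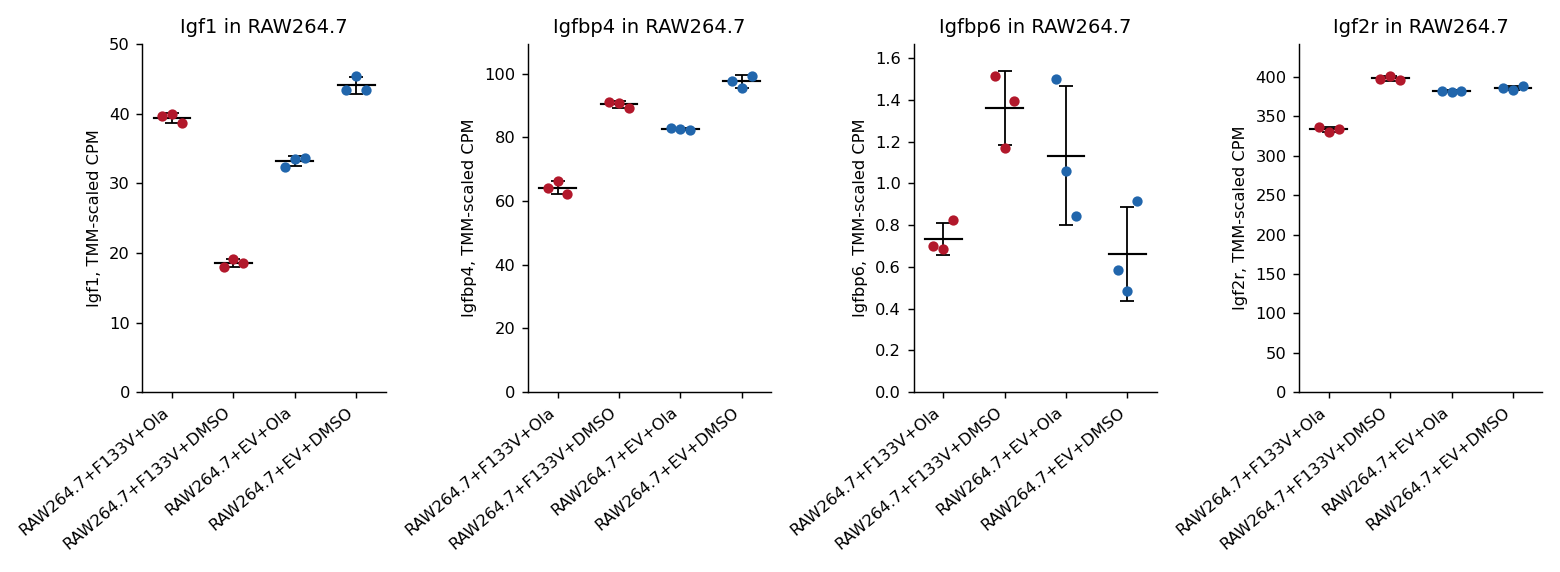
Igf1, Igfbp4, Igfbp6 and Igf2r in each of the 12 macrophage libraries as TMM-scaled CPM on axes from 0, with the F133V partner in red and the EV partner in blue; lines are group means and bars are SD (n = 3). Igf1 lies at 17.9 to 19.2 CPM in RAW264.7+F133V+DMSO and at 32.4 CPM or above in the other 3 groups, while Igfbp6 stays at or below 1.52 CPM.

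The other members tested in macrophages were Igfbp4, Igfbp6 and Igf2r, 4 of 10 with Igf1. With the F133V against the vector partner, 2 of the 4 were higher and 2 lower with DMSO, where 53.6% of 14262 genes passed, and 1 was higher and 3 lower with olaparib, where 35.2% passed. For olaparib, 1 was higher and 3 lower opposite F133V cells (57.5% of genes) and 1 higher and 2 lower opposite vector cells (28.4%). All 4 passed for the difference between those olaparib changes, 1 higher and 3 lower, where 49.3% of genes passed.

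Macrophage Igfbp4 fell with olaparib whichever the partner. Opposite F133V cells it read 64.0, 66.3 and 62.3 CPM with olaparib, against 91.2, 90.9 and 89.1 CPM with DMSO (log2 −0.50 ± 0.03, adjusted p = 7.43e-22). Opposite vector cells it read 83.1, 82.5 and 82.4 CPM with olaparib, against 97.8, 95.5 and 99.4 CPM with DMSO (−0.24 ± 0.03, adjusted p = 1.71e-10). The difference between these changes was −0.26 ± 0.04 (adjusted p = 9.57e-08; −0.25 without RAW264.7+F133V+DMSO replicate 2). The F133V partner went with lower Igfbp4 under both treatments, with log2 differences of −0.11 ± 0.03 with DMSO (adjusted p = 0.000277) and −0.37 ± 0.03 with olaparib (adjusted p = 9.33e-16); scaled by library size alone, the first was −0.06 and did not pass (adjusted p = 0.055). Opposite F133V cells Igfbp4 therefore fell in macrophages with olaparib, and in the F133V cells of those cocultures it rose.

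Igfbp6 had only 16 to 56 counts per macrophage library. Opposite F133V cells it read 0.698, 0.684 and 0.823 CPM with olaparib and 1.52, 1.17 and 1.40 CPM with DMSO (−0.88 ± 0.24, adjusted p = 0.00149). Opposite vector cells it read 1.498, 1.06 and 0.842 CPM with olaparib and 0.587, 0.486 and 0.917 CPM with DMSO (0.78 ± 0.26, adjusted p = 0.0187), a call that was lost without RAW264.7+EV+DMSO replicate 1 or 2 or RAW264.7+EV+Ola replicate 1 (adjusted p = 0.076 to 0.2). The F133V-partner group was 2.06-fold above the vector-partner group with DMSO (1.04 ± 0.25, adjusted p = 0.000361). With olaparib the difference was −0.62 ± 0.25 (adjusted p = 0.0498), which did not pass with DESeq2 (adjusted p = 0.1), with library size alone (adjusted p = 0.074) or without any 1 of RAW264.7+EV+Ola replicate 1 or 2 or RAW264.7+F133V+Ola replicate 1, 2 or 3 (adjusted p = 0.061 to 0.36; −0.36 without RAW264.7+EV+Ola replicate 1). The difference between the olaparib changes was −1.66 ± 0.35 (adjusted p = 8.98e-05). Without RAW264.7+F133V+DMSO replicate 2 it was −1.76, and the partner difference with DMSO was 1.14. The 14 cancer cell markers summed to 0.515 to 1.08 CPM in these libraries, and Igfbp6 alone read 0.486 to 1.52 CPM; their part in its level was not tested.

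Igf1r, the signalling receptor (chromosome 7, 67952827 to 68233668, plus strand), was present in cancer cells and had 0 to 2 counts in macrophage libraries. It read 29.5 to 38.1 CPM in F133V libraries and 20.0 to 26.1 CPM in vector libraries, with no overlap. The genotype difference was 0.53 and 0.50 in monoculture and 0.45 and 0.48 in coculture, each with DMSO first, on the log2 scale (no test), and 0.50 in monoculture with DMSO without the 2 Lyz2 libraries and 0.20 in coculture with DMSO with library size alone. With olaparib Igf1r differed by −0.11 to 0.04 and passed in 0 of 4 contrasts (adjusted p = 0.147 to 0.978), and 0 of 4 differences between genotypes in the olaparib or the coculture change passed (adjusted p = 0.354 to 0.9). With library size alone the olaparib change in F133V cocultures was 0.13 and passed (adjusted p = 0.018), the olaparib change in coculture differed between genotypes by 0.24, and the coculture change with DMSO by −0.25 (adjusted p = 0.004 each). With coculture Igf1r rose by 0.26 ± 0.06 in vector cells with DMSO (adjusted p = 0.000135; 0.24 without the 2 Lyz2 libraries). In F133V cells with DMSO it read 38.1, 33.3 and 32.8 CPM in coculture and 30.2, 31.7 and 30.03 CPM alone (0.18 ± 0.05, adjusted p = 0.00235), but the change was −0.03 with library size alone (adjusted p = 0.64) and 0.11 (adjusted p = 0.071) without F133V+RAW264.7+DMSO replicate 1, the highest library. With olaparib the coculture differences were 0.10 in F133V cells and 0.12 in vector cells, and neither passed (adjusted p = 0.0978 and 0.0961). They did pass in fits with 1 library left out: 0.14 without F133V+Ola replicate 3, 0.16 without EV+Ola replicate 2 and 0.17 without EV+RAW264.7+Ola replicate 2.

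Igf2r (chromosome 17, 12682406 to 12769664, minus strand) had the highest CPM of the members and stayed within a narrow range in each cell type. It read 854 to 1120 CPM in cancer cells and 330 to 402 CPM in macrophages. F133V cells read 1103, 1120 and 1099 CPM in coculture with DMSO, against 879, 884 and 883 CPM alone (log2 0.33 ± 0.02, adjusted p = 2.12e-17; 0.12 with library size alone), while vector cells read 876, 854 and 871 CPM in coculture and 955, 946 and 945 CPM alone (−0.13 ± 0.02, adjusted p = 1.45e-06; −0.12 without the 2 Lyz2 libraries). The difference between these changes was 0.46 ± 0.03 (adjusted p = 6.2e-17; 0.30 with library size alone, 0.44 without the 2 Lyz2 libraries, 0.47 without F133V+RAW264.7+DMSO replicate 1). With olaparib, coculture differed from monoculture by 0.03 in F133V cells (adjusted p = 0.198; 0.06 and called without F133V+Ola replicate 2) and by 0.00 in vector cells (adjusted p = 0.943). In coculture the olaparib change of Igf2r was −0.17 ± 0.02 in F133V cells (adjusted p = 1.01e-09), which turned to 0.04 and was not called with library size alone (adjusted p = 0.11), and 0.14 ± 0.02 in vector cells (adjusted p = 1.78e-06). In F133V monocultures it was 0.13 ± 0.02 (adjusted p = 3.89e-06; 0.20 with library size alone, 0.10 to 0.14 without any 1 library of F133V+Ola). The olaparib changes differed between genotypes by −0.31 ± 0.03 in coculture (adjusted p = 3.73e-12) and 0.12 ± 0.03 in monoculture (adjusted p = 0.0019; 0.115 without the 2 Lyz2 libraries), and by −0.10 and 0.22 with library size alone. In macrophages the olaparib change was −0.26 ± 0.02 opposite F133V cells (adjusted p = 7.68e-20), and the difference opposite vector cells was −0.01 ± 0.02 (adjusted p = 0.567; −0.09 and called with library size alone). The partner differences were 0.05 ± 0.02 with DMSO (adjusted p = 0.0113; 0.10 with library size alone) and −0.20 ± 0.02 with olaparib (adjusted p = 9.5e-15), and the difference between the olaparib changes was −0.24 ± 0.02 (adjusted p = 2.38e-13). Without RAW264.7+F133V+DMSO replicate 2 the partner difference with DMSO was 0.04 and passed (adjusted p = 0.048).

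Among the 5 members whose interactions were tested in cancer cells (all but Igfbp5), the olaparib change differed between genotypes for 2 higher and 1 lower in coculture, where 67.4% of genes passed, and for 3 higher and 0 lower in monoculture (24.2%). The coculture change differed for 1 higher and 2 lower with DMSO (62.7%) and for 1 higher and 2 lower with olaparib (46.9%). Igfbp7 is 1 of the 2 lower in both coculture counts, and nothing is read from it.

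Set against cancer cells of the same coculture, macrophages held less of the receptor Igf2r and of Igfbp4 and Igfbp6. Of 17295 genes, 86.3% passed in the F133V coculture with DMSO and 82.2% in the vector coculture, so the cell types differed in most genes. The log2 values come from the fit of all libraries, while CPM were scaled within each cell type, so they do not match exactly. With library size alone the median log2 difference of all genes was 0.1 in the F133V and −0.14 in the vector coculture. With TMM it was −0.03 and −0.05. For Igf2r the log2 difference was −1.33 ± 0.02 in the F133V coculture (adjusted p = 1.97e-51) and −1.09 ± 0.02 in the vector coculture (adjusted p = 4.76e-47). For Igfbp4 it was −0.78 ± 0.03 in the F133V coculture (adjusted p = 3.73e-33), whose cancer cells had the low level described above, and −1.80 ± 0.03 in the vector coculture (adjusted p = 1.64e-51). Igfbp6 read 1.36 ± 0.18 CPM in macrophages and 83.7 ± 3.1 CPM in cancer cells of the F133V coculture, and 0.663 ± 0.225 CPM in macrophages and 101.5 ± 0.66 CPM in cancer cells of the vector coculture (log2 −5.80 ± 0.07, adjusted p = 3.84e-56, and −7.19 ± 0.08, adjusted p = 6e-58). Igf1 had at most 2 counts in any cancer cell library, and Igf1r, Igfbp5 and Igfbp7 had at most 2, 4 and 0 in any macrophage library; these genes passed the filter through 1 cell type, and no test is given.

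Per kilobase of exons, which allows genes to be compared, Igf2r had the highest mean in 11 of the 12 groups. It read 94.8 to 119 CPM per kb in F133V cells and 93.1 to 102 in vector cells. The exception was F133V+RAW264.7+Ola, where Igfbp6 led with 145 ± 3.2 CPM per kb and Igf2r had 106 ± 0.50. In vector cells Igfbp5 had order 4, with 2.45 to 8.5 CPM per kb, above Igf1r with 1.26 to 1.52. In F133V cells Igfbp5 read 0.0905 to 0.276 CPM per kb and lay below Igf1r, at 1.82 to 2.07. Neighbours in the order that did not differ beyond their spread were Igfbp4 and Igfbp6 in EV+DMSO, at 73.6 ± 0.72 and 72.1 ± 2.1 CPM per kb, and in EV+RAW264.7+Ola, at 71.1 ± 0.85 and 70.3 ± 0.63. In EV+RAW264.7+DMSO these were Igf2r and Igfbp6, at 93.1 ± 1.2 and 91.3 ± 0.59 CPM per kb. Igfbp5 and Igfbp7 did not differ beyond their spread in F133V+DMSO (0.0905 ± 0.032 and 0.232 ± 0.13 CPM per kb), F133V+Ola (0.13 ± 0.015 and 0.193 ± 0.072) or F133V+RAW264.7+DMSO (0.108 ± 0.021 and 0.0855 ± 0.015). In macrophages the order was Igf2r, Igfbp4, Igf1 and Igfbp6 in all 4 groups, with Igf1 at 1.87 to 4.45 CPM per kb.

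**Figure D5:**
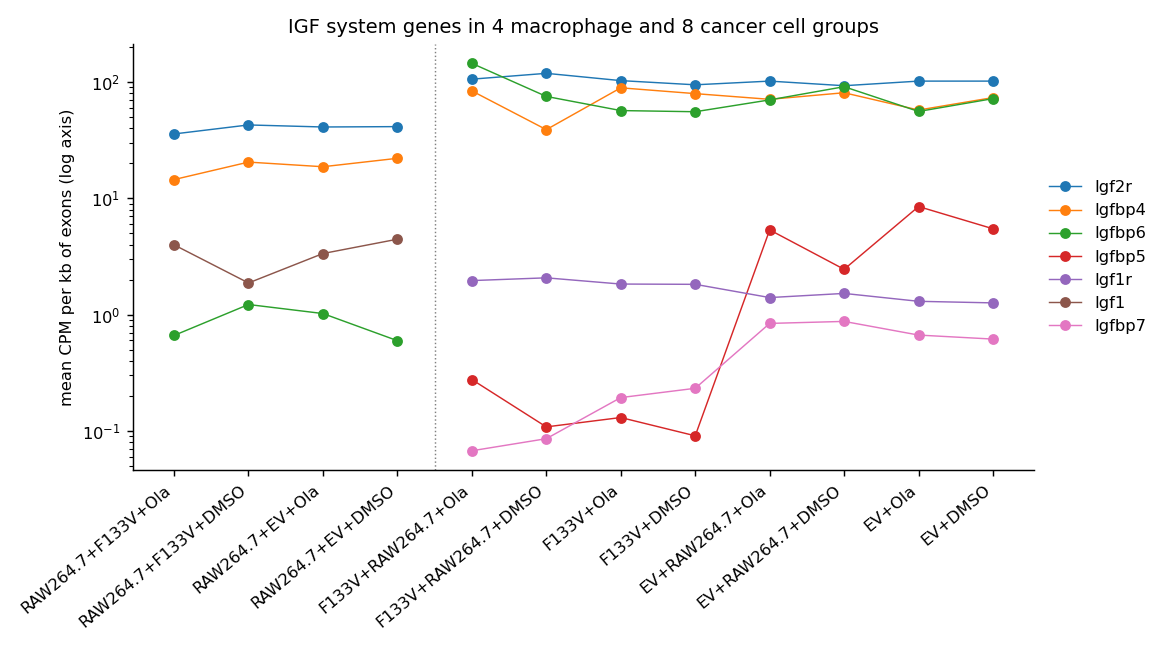
Mean level of 7 members in the 4 macrophage and 8 cancer cell groups, in CPM per kb of exons on a log axis (lines only join points of 1 gene); levels under 0.05 are not drawn. Igf2r lies at 35.8 to 42.8 in macrophages and at 93.1 to 119 in cancer cells, Igf1 appears only in macrophages, and Igfbp5 lies at 2.45 to 8.5 in EV groups and at or below 0.276 in F133V groups.

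Genes with the most similar pattern were found by the root mean square difference of centred log2 CPM. For Igfbp5 over the 24 cancer cell libraries (10416 candidates) these were Abca1, a cholesterol exporter (0.559), Krt8, a keratin (0.605), Pcdh15 (0.63), Tnr, a matrix protein (0.659), and Rnf150 (0.749), against a span of 6.47 for Igfbp5 itself. Krt8 is also on the list of cancer cell markers, and read 0.267 to 0.38 CPM in F133V groups and 15.4 to 31.4 CPM in vector groups. Krt18, another keratin of that list, did not follow it. It read 60 to 385 CPM in F133V libraries and 61.5 to 130 CPM in vector libraries. Closest to Igfbp4 were Dhrs7 (0.098) and Prpsap2 (0.101), against a span of 1.19, and closest to Igfbp6 were P4ha1, a collagen prolyl hydroxylase (0.147), and Adgrf5 (0.178), against a span of 1.38. Closest to Igf1 over the 12 macrophage libraries (9905 candidates) were Efr3b (0.048) and Ankdd1a (0.078), against a span of 1.25.

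Other genes of the pathway were described from 4 lists, with 39 genes tested in cancer cells and 28 in macrophages. With olaparib, F133V cocultures had 12 of the 39 higher and 21 lower (39.3% and 37% of all genes), and F133V monocultures 10 higher and 9 lower (18.2% and 17.9%). In vector cells 9 were higher and 9 lower in coculture (12.6% and 10.9% of all genes) and 12 higher and 12 lower in monoculture (15.3% and 15.1%). With coculture, F133V cells had 19 higher and 4 lower with DMSO (35.6% and 34.8% of all genes) and 13 higher and 14 lower with olaparib (26.7% and 26.5%). Vector cells had 11 higher and 10 lower with DMSO (23.4% and 18.6%) and 14 higher and 14 lower with olaparib (25.5% and 18.5%). These balances move with the scaling: with library size alone in place of TMM, the higher made up 34.6% against 50.6% of all genes called for coculture in F133V cells with DMSO, and 63.5% against 51.5% for olaparib in F133V cocultures.

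Receptor signalling genes made up part of that split: 9 of 17 were higher and 0 lower in F133V cocultures with DMSO (median log2 change 0.23, against 0.01 for all genes), and 4 were higher and 11 lower when those cocultures had olaparib (median −0.17, against 0.02), where the shares of all genes are those just given. Foxo3, a transcription factor restrained by AKT, read 205 ± 3.9 CPM in F133V cocultures and 116 ± 2.0 CPM in F133V monocultures with DMSO (0.82 ± 0.02, adjusted p = 1.54e-27), and 111 ± 0.96 CPM in F133V cocultures with olaparib. Irs1, the docking protein of the receptor, read 95.4 ± 1.1 CPM in vector cocultures and 145 ± 1.8 CPM in vector monocultures with DMSO (−0.61 ± 0.03, adjusted p = 1.27e-21). Irs1 rose with olaparib in both vector settings (0.34 ± 0.03, adjusted p = 3.64e-13, and 0.31 ± 0.03, adjusted p = 6.17e-13) and in F133V monocultures (0.35 ± 0.03, adjusted p = 3.12e-13). Its olaparib change in F133V cocultures is not given, because other genes had the smallest adjusted p there.

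Among IGF carriers, proteases and inhibitors (7 of 10 tested in cancer cells), Htra1, a secreted protease that cuts IGF-binding proteins, rose in vector cocultures to 259 ± 2.7 CPM, against 171 ± 2.9 CPM in vector monocultures with DMSO (0.59 ± 0.02, adjusted p = 3.65e-22). With olaparib it read 212.5 ± 1.7 CPM in vector cocultures, against 259 ± 2.7 CPM with DMSO (−0.29 ± 0.02, adjusted p = 2.97e-12). The list had 3 genes higher and 0 lower with coculture in vector cells with DMSO (23.4% and 18.6% of all genes). With olaparib in F133V cocultures 2 were higher and 2 lower (39.3% and 37% of all genes). In macrophages, where 3 were tested, all 3 were lower with the F133V partner and DMSO (28.1% of all genes were lower), and 1 was higher and 1 lower with the F133V partner and olaparib (17.6% and 17.6%). All 3 were higher with olaparib opposite F133V cells (28.5% of all genes) and opposite vector cells (14%). Mmp9, a gelatinase, read 48.2 ± 0.16 CPM with olaparib and 23.4 ± 0.62 CPM with DMSO opposite vector cells (1.04 ± 0.04, adjusted p = 4.37e-26). Opposite F133V cells it read 17.8 ± 0.63 CPM with olaparib, below the vector-partner level with olaparib (log2 −1.44 ± 0.04, adjusted p = 2.13e-31).

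Of the RNA-binding proteins that bind Igf2 mRNA, Igf2bp1 and Igf2bp2 were among the 3 genes of the pathway lists with the smallest adjusted p in F133V cocultures. Igf2bp1 read 81.2 ± 2.1 CPM with olaparib and 238 ± 3.4 CPM with DMSO in F133V cocultures (−1.55 ± 0.03, adjusted p = 2.23e-35), and 128 ± 2.8 CPM in F133V monocultures with DMSO. Igf2bp2 read 223 ± 2.5 CPM with olaparib and 390 ± 3.4 CPM with DMSO in F133V cocultures (−0.81 ± 0.02, adjusted p = 5.11e-29), and 209 ± 0.56 CPM in F133V monocultures with DMSO. The coculture change with DMSO differed between genotypes by 1.01 ± 0.04 for Igf2bp1 (adjusted p = 1.93e-23) and by 0.93 ± 0.03 for Igf2bp2 (adjusted p = 5.49e-25), and the olaparib change in coculture by −1.44 ± 0.04 for Igf2bp1 (adjusted p = 2.59e-28). Their target transcript Igf2 stayed at 0 to 2 counts in all of these libraries.

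Their list holds 6 genes, also Igf2bp3 and 3 noncoding RNAs transcribed next to Igf2 or Igf2r. Of the 4 tested in cancer cells, 2 were higher and 2 lower with olaparib in F133V cocultures (39.3% and 37% of all genes). With coculture in F133V cells under DMSO, 2 were higher and 1 lower (35.6% and 34.8% of all genes).

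Of the 11 signalling inhibitors, 5 were higher and 3 lower with coculture in F133V cells under DMSO, and 4 higher and 6 lower with olaparib in F133V cocultures, beside 35.6% and 34.8%, and 39.3% and 37%, of all genes. Phlda3, an inhibitor of AKT, read 37.3 ± 2.0 CPM in F133V cocultures and 83.9 ± 6.7 CPM in F133V monocultures with olaparib (−1.17 ± 0.04, adjusted p = 1.39e-23). Of the 28 genes of the 4 lists tested in macrophages, 5 were higher and 14 lower with the F133V partner and DMSO (25.5% and 28.1% of all genes), and 17 higher and 5 lower with olaparib opposite F133V cells (28.5% and 29%). With library size alone in place of TMM, the higher made up 59.3% against 47.5% of all genes called in the first comparison and 36.7% against 49.6% in the second. Pik3cb, a catalytic subunit of PI3 kinase, read 134 ± 2.2 CPM with the F133V partner and 224 ± 2.2 CPM with the vector partner under DMSO (−0.74 ± 0.02, adjusted p = 6.72e-35), and 224 ± 1.6 CPM with the F133V partner under olaparib.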

How the data were processed

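Total RNA of 24 RM-1-BM and 12 RAW264.7 libraries was sequenced. The counts used are those the authors deposited, whole numbers for 46078 genes with no normalization. STAR, TopHat, HTSeq, DESeq2 and build GRCm38 are named in the submitters' processing notes, whose available text gives no role, version or strand setting. Groups came from the labels. Lines that name no gene were left out (17.1% to 21.5% of reads in no gene).

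Cancer cells (15962 genes, 16 residual degrees of freedom), macrophages (14262 genes, 8) and all libraries together (17295 genes, 24) were each fitted with edgeR 4.0.16 in R 4.3.3, using TMM factors, a filterByExpr minimum of 10 counts, the quasi-likelihood F test and Benjamini-Hochberg adjustment, called under 0.05. A fold change's SE is its size over the square root of its F value. The procedure was tried on simulated data in which few genes changed, as many up as down. Such data cannot test the scaling where many genes change, as they did here. No 2 libraries of a group were identical.

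Members and lists were chosen with earlier results of these data known. The text names all members, Spop, at most 3 pathway genes per comparison with the smallest adjusted p, and the genes of like pattern. It also names the markers Lyz2 and Krt18. Positions came from GENCODE M21 and figures from matplotlib 3.10.9. Alternatives were RLE scaling, library size alone, DESeq2 1.42.0, no filter on low counts, a replicate block, each library left out, and the 2 EV+DMSO libraries with Lyz2 above 2 CPM left out.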

Additional observations from a re-analysis of the deposited data

Results flagged for a closer look

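These differences between groups in the change that a treatment or culture made are listed because a test of the difference itself passed. All are log2 values, F133V minus vector, from edgeR's quasi-likelihood test. Igfbp4 had the most, in all 4 cancer cell interactions and in macrophages: for coculture −1.17 with DMSO and −0.40 with olaparib, for olaparib 1.29 in coculture and 0.52 in monoculture, and −0.26 in macrophages. For Igfbp6 the values were 1.02 for coculture with olaparib, 1.33 for olaparib in coculture, 0.40 for olaparib in monoculture and −1.66 in macrophages at 16 to 56 counts per library. Igf2r gave 0.46 for coculture with DMSO, −0.31 for olaparib in coculture, 0.12 for olaparib in monoculture and −0.24 in macrophages. Igfbp7 gave −1.93 for coculture with DMSO and −1.79 with olaparib, but it passed the filter only through the vector groups and had 3 to 15 counts per F133V library, so nothing is read from either. Without F133V+Ola replicate 3 the value with olaparib was −1.58 and did not pass. The olaparib change of Igf1 in macrophages differed by 1.5 between the partners, and its 2 changes had opposite signs.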

How the results depend on the processing

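Members gave 677 values under other scaling, tests, filters, the replicate block or without the 2 Lyz2 libraries. Of these, 653 stayed the same, as did 922 of 948 values with 1 library left out. A tested value stayed the same if it kept its side of the threshold with no called change of direction. A value given with no test did so if it moved by less than a limit wider than its SE. A value called under neither setting could change direction and still be counted here. Library size alone changed the sign of 9 values. In 5 of them neither scaling gave a call, and these 5 are counted in the 653. Among them was Igfbp6, at −0.066 for the coculture change in F133V minus vector cells with DMSO. The other 4 were Igf1r with coculture in F133V cells under DMSO (−0.028), Igf1r with olaparib in F133V cocultures (0.13), Igf2r with olaparib in F133V cocultures (0.036) and Igf2r in F133V against vector cocultures with olaparib (−0.002). The cause was not tested. It also moved the median of all genes from about 0 to −0.31 (F133V against vector, coculture, DMSO), −0.2 (coculture, F133V, DMSO) and 0.23 (olaparib, F133V coculture). The share of higher among called genes shifted by over 10 points with it in 13 comparisons, given here with library size alone against TMM. In F133V cells it was 34.6% against 50.6% for coculture with DMSO, 37.4% against 50.2% for coculture with olaparib, 63.5% against 51.5% for olaparib in coculture and 74.6% against 50.5% for olaparib alone. It was 34.7% against 47.1% for F133V against vector cocultures with DMSO and 42.2% against 55.7% for coculture in vector cells with DMSO. Interactions gave 35.7% against 48.1% (coculture, DMSO), 65.9% against 52.6% (olaparib, coculture) and 82.7% against 54.9% (olaparib, monoculture). Macrophages gave 59.3% against 47.5% and 75.6% against 49.9% for the partner (DMSO, then olaparib), and 36.7% against 49.6% and 14.7% against 49.1% for olaparib (F133V, then vector partner). Without the 2 Lyz2 libraries, genes called for olaparib in vector monocultures came to 2952, against 4857; fewer libraries entered that fit.

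Within each cell type, same-numbered libraries showed no shared deviation: the correlation was −0.05 to 0.06 in cancer cells and −0.02 to 0.04 in macrophages. Cancer cell and macrophage libraries were not correlated with each other, so pairing within a coculture was not examined in this way. With the replicate block the counts of genes called were 0.999 to 1.021 times those without it in 23 comparisons, and all 130 values of members kept their call. Depth limits Igfbp7, Igfbp6 in macrophages and Igfbp5 in F133V cells, at 3 to 72 counts per library.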
